A study of Drosophila melanogaster with 4 samples.

Results

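The genes described here are the fruit fly's ribosomal proteins and translation factors, 98 of the 6793 genes named on a spotted cDNA array. They were chosen by gene symbol: names that start with RpL, RpS, mRpL or mRpS and a digit, or with eIF or eEF. By this rule there were 20 cytoplasmic ribosomal proteins, 48 mitochondrial ribosomal proteins, 26 initiation factors and 4 elongation factors. The arrays compared heads of Oregon-R wild type male Drosophila melanogaster kept on food with 5 mg/ml of levetiracetam for 3 days against heads of males of the same strain kept on normal food. The drug is used against epilepsy, and its known target in mammals is the synaptic vesicle protein SV2A. Both groups were unmated, were kept 30 to a vial and had spent 7 days on normal food before the feeding. Fly age was given as 3 to 4 days in the sample labels and as 7 to 10 days in the design text, and the growth notes give the normal food pool of replicate 1 and the levetiracetam pool of replicate 4 a shorter time in vials than the other pools. There were 4 arrays, each with 1 pool of heads from drug-fed flies and 1 pool from control flies, and each pool mixed many animals.

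Ribosomes of the cytoplasm are built from ribosomal RNA and 2 sets of proteins, those of the large subunit (RpL) and those of the small subunit (RpS), made in matched amounts. Mitochondria hold ribosomes of their own, whose proteins (mRpL, mRpS) are encoded in the nucleus and which make a handful of subunits of the respiratory chain. Initiation factors (eIF) bring the messenger RNA, the small subunit and the initiator tRNA together, and elongation factors (eEF) deliver each further tRNA and move the ribosome along. In neurons, translation is a known point of control in plasticity and stress.

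A value is the log2 ratio of the 2 dyes on 1 array, after the authors' normalization. The drug-fed pool was the Cy5 sample on the first 2 arrays and the Cy3 sample on the other two, replicates 3 and 4, whose values were multiplied by -1. A value above 0 then stands for more signal from levetiracetam heads, but this is only the likely direction. The labels list the Cy5 sample as the first channel on every array, but no source used here states which channel is on top of the ratio. Means with no sign turned are therefore given too, as the values as deposited. Between 8040 and 12608 of the 27648 spots had a value on an array. The arrays were not centred: over all rows tested, the median log2 ratio was -0.14, -0.11, 0.073 and 0.29 in replicates 1 to 4 with the sign turned. Any gene that follows its array's middle therefore falls below 0 in replicates 1 and 2 and above 0 in replicates 3 and 4.

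Of the 98 members, 45 had a value on at least 3 arrays, 35 of them on all 4, and 26 had none on any array. This was 45.9% of the members, against 33.3% of all named genes. The share differed between the groups of genes: 15 of 20 cytoplasmic ribosomal proteins were measured, 14 of 26 initiation factors and 3 of 4 elongation factors, against 13 of 48 mitochondrial ribosomal proteins. A spot that was dim, flagged or saturated has no value, so the genes left out cannot be described. The 45 genes were read from 187 pairs of neighbouring spots with both values present. Within such a pair the median difference was 0.22 on the log2 scale, against 0.26 over the whole array.

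The members' levels in heads of levetiracetam-fed flies did not differ from those in heads of flies on normal food by more than the test could call. In limma's one-sample test 0 of the 45 genes passed an adjusted p of 0.05, and the smallest adjusted p among them was 1.00. Of all 3853 rows tested 0 passed, which is 0%. At an unadjusted p under 0.05 there were 3 members higher with levetiracetam, RpL23, eIF3g1 and mRpL54, and 0 lower. The 3 are 6.67% of the members measured. The share of all rows that did so was 1.92% for higher and 0.675% for lower. The 3 became 0 without replicate 1, and 1 without replicate 2, 3 or 4. One-class SAM, the test named in the design text, called 0 members and 4 rows, or 0.104%, at a false discovery rate of 0.05. It called 0 rows when its false calls were averaged by the mean. Of the 45 means, 29 lay above 0, which is 64.4% against 57.2% of all rows. The median half-width of the 95% interval was 0.42 on the log2 scale for a member, before any adjustment over the rows. In pools of whole heads, fewer cells that hold a transcript and less of the transcript per cell cannot be told apart.

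**Figure D1:**
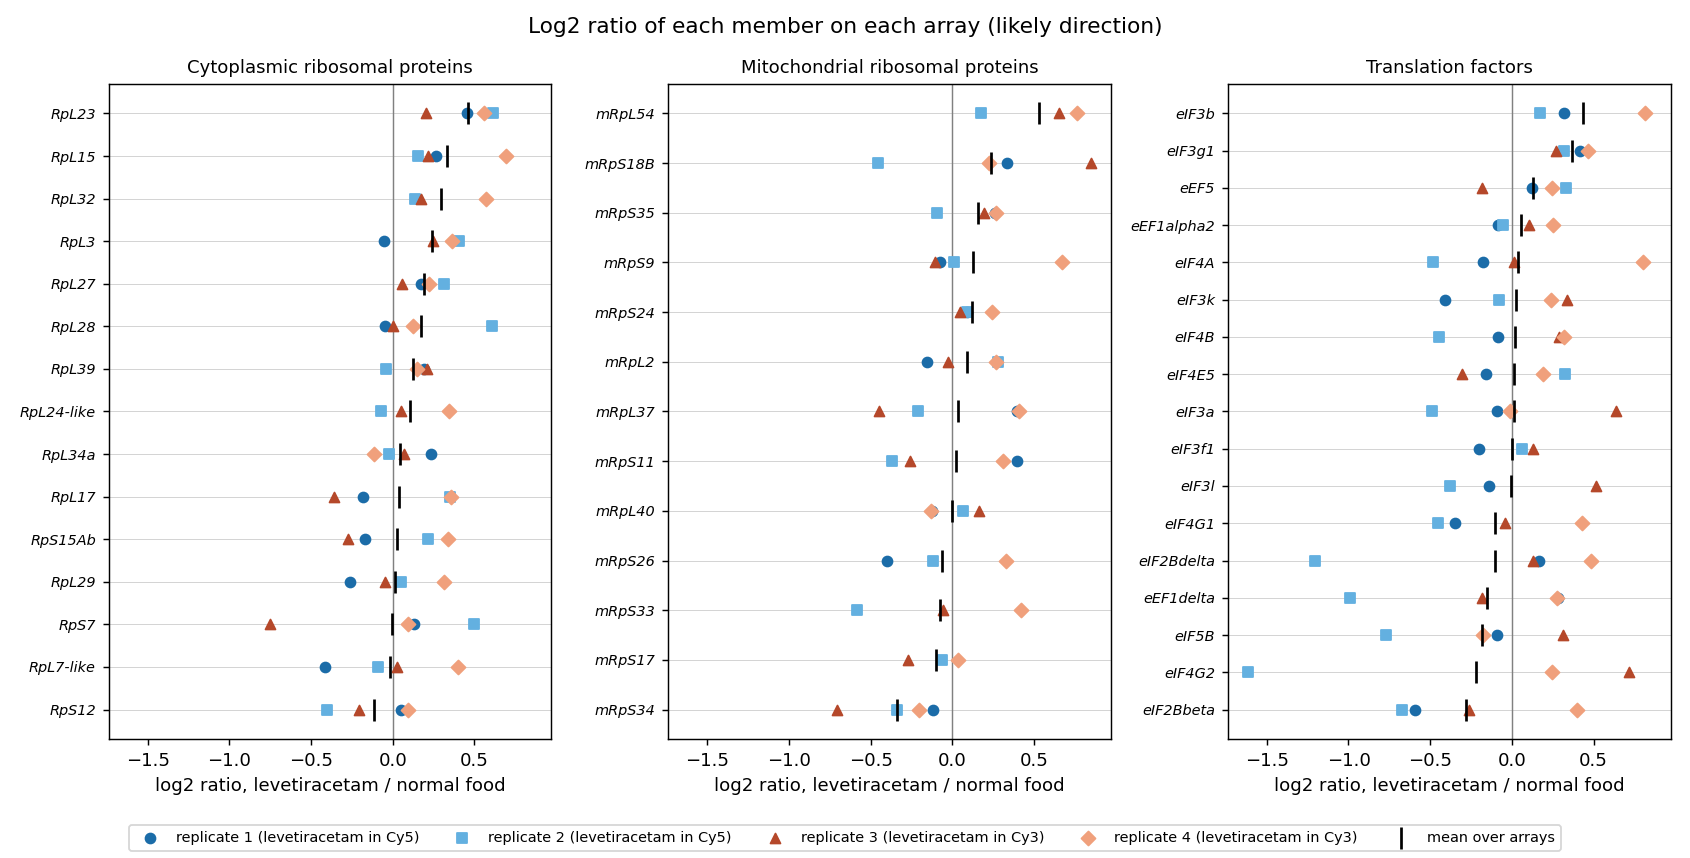
Log2 ratio of levetiracetam over normal food for each of the 45 measured genes on each array, in 3 groups. Points stand for single arrays, with circles and squares for levetiracetam in Cy5 and triangles and diamonds for levetiracetam in Cy3, and the vertical tick is the mean over arrays. RpL23 and eIF3g1 lie above 0 on all 4 arrays, and mRpS34 lies below 0 on all 4.

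The cytoplasmic ribosomal proteins lay mostly above 0. The means of 12 of the 15 measured genes were above 0, or 80%, against 57.2% of all rows. Their median was 0.11, against 0.027 over all rows, and none passed the test. Without replicate 4, whose whole array reads high, the 12 became 8, and no share of all rows is given for that count. The median was 0.064 without replicate 2 and 0.18 without replicate 3. It was 0.042 over the 13 genes with values on all 4 arrays. Members of the large subunit made up 12 of the 15, and 11 of these had a mean above 0. The highest was RpL23 (Dmel_CG3661), a protein on the face of the large subunit that meets the small one. It stood at 0.45, 0.62, 0.20 and 0.56 on the log2 scale in replicates 1 to 4. All 4 arrays were above 0, at a mean of 0.46 ± 0.18 (SD, n = 4), which is 1.37-fold. Its 95% interval in limma was 0.10 to 0.82, with an unadjusted p of 0.0182 and an adjusted p of 1.00. With 1 array left out the mean stayed between 0.41 and 0.54, and with the values as deposited it was 0.077.

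RpL15 (Dmel_CG17420), another protein of the large subunit, stood at 0.27, 0.16, 0.22 and 0.69 in replicates 1 to 4. It was above 0 on all 4 arrays and highest in replicate 4, whose whole array reads high. The mean was 0.33 ± 0.24 (SD, n = 4), with an adjusted p of 1.00 in limma, and it was 0.21 without replicate 4. As deposited RpL15 stood at -0.12. RpL3, which reaches towards the catalytic centre of the large subunit, stood at -0.052, 0.41, 0.25 and 0.37, with only replicate 1 below 0. Its mean was 0.24 ± 0.21 (SD, n = 4), against -0.064 as deposited. RpL27 stood at 0.17, 0.31, 0.058 and 0.22, above 0 on all 4 arrays, at a mean of 0.19 ± 0.11 (SD, n = 4), and as deposited it was 0.052. RpL28 stood at -0.050, 0.61, 0.0010 and 0.12, far higher in replicate 2 than on the other arrays. Its mean was 0.17, or 0.025 without that array.

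RpL32, also known as rp49, is the gene many fly studies use as a reference that is assumed not to change. The array carries 10 features for it, of which 1 had values on 3 arrays, 1 on 2 arrays and the others on none. Its gene mean stood at 0.14, 0.18 and 0.57 in replicates 2 to 4. All 3 arrays were above 0, at a mean of 0.29 ± 0.24 (SD, n = 3) with a limma interval of -0.16 to 0.75, which spans 0. The mean was 0.16 without replicate 4, and as deposited it stood at -0.20.

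The other large subunit members stood nearer to 0. RpL39, a small protein of the subunit's exit tunnel, had 2 features with means of 0.042 and 0.21, and a gene mean of 0.13. RpL34a, RpL17 and RpL29 had means of 0.042, 0.042 and 0.014. RpL17 was spread over 0, at -0.18, 0.35, -0.36 and 0.36, high in replicates 2 and 4 and low in the others. RpL24-like and RpL7-like match the rule by name, but their yeast counterparts are factors that assemble the large subunit and do not stay in the ribosome. RpL24-like stood at 0.11 on 3 arrays and RpL7-like at -0.019 on 4. The 2 features of RpL7-like differed by 0.52, at means of -0.25 on 4 arrays and 0.27 on 3, so its gene mean is not firm. Without these 2 genes, 11 of 13 cytoplasmic members were above 0.

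The small subunit was represented by 3 genes only, and 1 of them had a mean above 0. RpS7 stood at 0.13, 0.49, -0.75 and 0.095 in replicates 1 to 4, above 0 on 3 arrays and far below it in replicate 3, with a mean of -0.0069. As deposited, where replicate 3 is not turned, its mean was 0.32, the highest of all 45 members. RpS12 had a mean of -0.12, with replicates 2 and 3 below 0. RpS15Ab, which has a close copy in the genome that its cDNA may also detect, had a mean of 0.027, and its 2 features stood at 0.072 and -0.017. Subtracting the small subunit's median from that of the large subunit gave 0.012, -0.072, 0.34 and 0.26 in replicates 1 to 4, at a mean of 0.13 ± 0.20 (SD). As deposited the mean was -0.16. The sign of this difference therefore depends on the reading of the dye swap.

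The mitochondrial ribosomal proteins were split around 0. Of 13 measured genes 8 had a mean above 0, or 61.5%, against 57.2% of all rows, and 5 had a mean below 0. Their median was 0.037, and none passed the test. The median was -0.058 without replicate 4 and between 0.10 and 0.13 without any other single array. The highest was mRpL54 (Dmel_CG9353) of the large subunit. It had no value in replicate 1 and stood at 0.18, 0.65 and 0.76 in replicates 2 to 4. All 3 were above 0, and the arrays with levetiracetam in Cy3 were the higher ones. The mean was 0.53 ± 0.31 (SD, n = 3), or 1.44-fold, the highest of all 45 members, with an interval of 0.053 to 1.01 in limma, an unadjusted p of 0.0341 and an adjusted p of 1.00. As deposited it was -0.41.

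The lowest mean of all 45 members was that of mRpS34, a protein of the mitochondrial small subunit, which stood at -0.12, -0.34, -0.70 and -0.20 in replicates 1 to 4. It was below 0 on all 4 arrays, replicates 3 and 4 included, where the array as a whole read above 0. In replicate 3 its neighbouring spots read -0.73 and -0.68. The mean was -0.34 ± 0.26 (SD, n = 4), with an interval of -0.72 to 0.039 and an adjusted p of 1.00 in limma. It was -0.22 without replicate 3. As deposited it turned to 0.11.

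Other small subunit members were less even. mRpS18B stood at 0.34, -0.45, 0.85 and 0.23, low in replicate 2 and high in replicate 3, at a mean of 0.24 ± 0.54 (SD, n = 4). That mean was 0.47 without replicate 2 and 0.036 without replicate 3. mRpS24 had the smallest spread of the 45 members, at 0.092, 0.089, 0.050 and 0.25, all above 0, and a mean of 0.12 ± 0.087 (SD, n = 4), or 0.077 without replicate 4. As deposited these 2 stood at -0.30 and -0.029. mRpS35 stood at 0.26, -0.096, 0.20 and 0.27, with only replicate 2 below 0, at a mean of 0.16, or 0.24 without that array. mRpS9 stood at -0.076, 0.010, -0.11 and 0.67, near 0 on the first 3 arrays and high in replicate 4, so its mean of 0.12 was -0.058 without that array. mRpS11 had a mean of 0.020, with replicates 1 and 4 above 0 and the other two below. mRpS17, mRpS33 and mRpS26, each on 3 arrays, had means of -0.098, -0.074 and -0.065. In the large subunit mRpL2, mRpL37 and mRpL40 had means of 0.092, 0.037 and -0.0045.

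**Figure D2:**
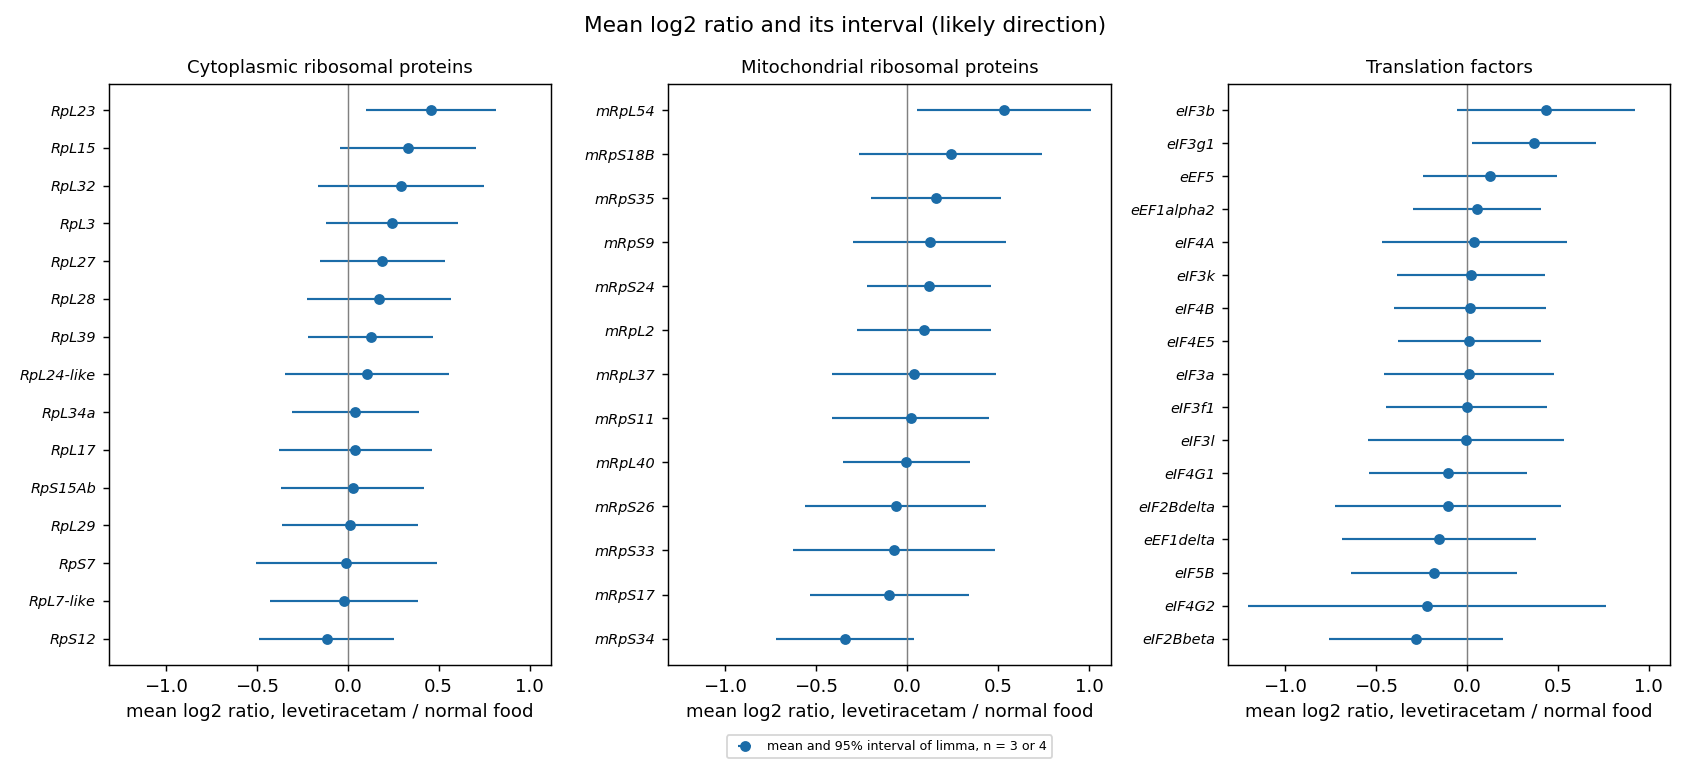
Mean log2 ratio of levetiracetam over normal food with its 95% interval from limma for each of the 45 genes, over 3 or 4 arrays. The intervals of RpL23, mRpL54 and eIF3g1 lie above 0, before adjustment over 3853 rows, and all others span 0.

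Among initiation factors 7 of 14 measured genes had a mean above 0, or 50%, against 57.2% of all rows, and 7 had a mean below 0. Their median was 0.0054, and none passed the test. Over all 17 factors 9 means were above 0, against 14 without replicate 2, 6 without replicate 3 and 4 without replicate 4. Leaving out an uncentred array also shifts the middle of all rows, whose share above 0 is not given for these counts. With the sign turned, the highest means were those of eIF3b and eIF3g1, subunits of eIF3, the large scaffold that binds the small ribosomal subunit. As deposited all 6 measured eIF3 subunits had a mean below 0, where only 20.2% of all rows had one above 0. With each array's median also subtracted, 3 of these 6 were above 0. The highest initiation factor as deposited was eIF4E5 at 0.072. eIF3g1 (Dmel_CG8636), an RNA-binding subunit, stood at 0.42, 0.32, 0.27 and 0.47 in replicates 1 to 4. The 4 arrays lay close together and all above 0, at a mean of 0.37 ± 0.088 (SD, n = 4), which is 1.29-fold. In replicate 3 the 2 spots of eIF3g1 read 0.034 and 0.51. Its interval was 0.030 to 0.71, with an unadjusted p of 0.0365 and an adjusted p of 1.00 in limma. With 1 array left out the mean lay between 0.34 and 0.40. As deposited the 2 pairs of arrays cancelled, at -0.00025.

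eIF3b, a core subunit, stood at 0.32, 0.17 and 0.82 in replicates 1, 2 and 4. All 3 arrays were above 0, with replicate 4 the highest, at a mean of 0.44 ± 0.34 (SD, n = 3) and 0.25 without replicate 4. In replicate 1 the 2 spots of eIF3b disagreed in sign, at -0.22 and 0.86. As deposited its mean was -0.11. The 4 remaining eIF3 subunits, eIF3a, eIF3k, eIF3l and eIF3f1, had means between -0.0030 and 0.023. Each of these 4 was below 0 in replicate 1 and above 0 in replicate 3. In replicate 1, eIF3g1 and eIF3b were the only 2 of the 6 measured eIF3 subunits above 0.

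eIF2B is the exchange factor that recharges eIF2 and is the target of the integrated stress response. Of its subunits eIF2Bbeta stood at -0.59, -0.67, -0.26 and 0.40, below 0 on 3 arrays and above it in replicate 4. Its mean was -0.28 ± 0.49 (SD, n = 4), and with 1 array left out it lay between -0.51 and -0.15. eIF2Bdelta stood at 0.17, -1.20, 0.13 and 0.49, with only replicate 2 below 0, and its mean was -0.11 or 0.26 without that array. eIF5B, which joins the ribosomal subunits, stood at -0.090, -0.77, 0.31 and -0.18. It was lowest in replicate 2, where its 2 spots read -1.43 and -0.10. Its mean was -0.18, or 0.015 without that array.

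The eIF4 factors act at the capped end of the messenger RNA. eIF4G1, the scaffold of the cap complex, stood at -0.35, -0.45, -0.042 and 0.43, below 0 on 3 arrays, with a mean of -0.10 ± 0.39 (SD, n = 4) and 2 features at -0.23 and 0.027. Its relative eIF4G2, known for a role in the fly's spermatogenesis, had no value in replicate 1 and stood at -1.62, 0.72 and 0.25 in replicates 2 to 4. Its value in replicate 2 is the lowest of any member on any array, and both of its spots read so, at -1.59 and -1.64. The mean was -0.22 ± 1.23 (SD, n = 3), and it turned to 0.48 without replicate 2. Of 3 testis markers on the array 1 was measured, Mst77F, at -0.13, -0.15 and -2.67 in replicates 1, 2 and 4. As deposited the mean of Mst77F was 0.80 and that of eIF4G2 was -0.86. Whether testis tissue had a part in these values was not tested. The helicase eIF4A stood at -0.18, -0.48, 0.014 and 0.80, lowest in replicate 2 and highest in replicate 4, at a mean of 0.040. Its helper eIF4B had a mean of 0.020, with replicates 1 and 2 below 0 and replicates 3 and 4 above. eIF4E5, a cap-binding protein of which the fly has several near relatives, had a mean of 0.013.

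Of the elongation factors, eEF5 (the hypusine-bearing factor that helps with stalled peptide bonds) stood at 0.12, 0.33, -0.18 and 0.24, above 0 on 3 arrays, at a mean of 0.13 ± 0.22 (SD, n = 4), between 0.061 and 0.23 with 1 array left out. eEF1alpha2, 1 of the fly's 2 genes for the factor that delivers tRNAs, stood at -0.083, -0.052, 0.11 and 0.25, below 0 in replicates 1 and 2 and above it in replicates 3 and 4, with a mean of 0.056. The cDNA of eEF1alpha2 may also detect its close copy. eEF1delta, part of the exchange factor for eEF1alpha, stood at 0.28, -0.99, -0.18 and 0.28, far lower in replicate 2 than on the other arrays, with a mean of -0.15, or 0.13 without replicate 2. None of the 3 passed the test in limma.

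Set side by side, the cytoplasmic ribosomal proteins had a median log2 ratio of 0.050, 0.16, 0.051 and 0.34 in replicates 1 to 4. The mitochondrial ribosomal proteins had 0.0078, -0.096, -0.041 and 0.27, and the initiation factors -0.14, -0.45, 0.27 and 0.36. The cytoplasmic group was above the mitochondrial group on 4 of 4 arrays, by 0.042, 0.25, 0.092 and 0.067, at a mean of 0.11 ± 0.094 (SD). As deposited it was above it on 2 of 4, at a mean of 0.034 ± 0.16. Without replicate 2 the mean with the sign turned was 0.067. The excess of the cytoplasmic group over all 17 translation factors was 0.14, 0.60, -0.080 and 0.061, at a mean of 0.18 ± 0.29, and as deposited 0.19 ± 0.29. Without replicate 2 it was 0.041 with the sign turned. The difference of the mitochondrial group minus the factors was 0.067 ± 0.22, above 0 on 2 of 4 arrays, and as deposited 0.16 ± 0.14, above 0 on 4 of 4. With the sign turned it was -0.026 without replicate 2. These differences are over genes that share an array and were not tested.

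The gap between ribosomal proteins and initiation factors was widest in replicate 2. There the cytoplasmic group stood 0.60 above the initiation factors, against 0.19 in replicate 1, -0.22 in replicate 3 and -0.024 in replicate 4. The mean gap was 0.14 ± 0.35 (SD), above 0 on 2 of 4 arrays and -0.018 without replicate 2, and as deposited 0.26 ± 0.24, above 0 on 4 of 4. Several initiation factors have spot numbers near those of other features that read low in replicate 2. The order of spot numbers was divided into 48 runs of equal length, and positions on the slide were not used here. In the run that holds eIF4G2, eIF3a, eIF3l and 1 feature of eIF4G1, the median of all features was -0.76 in replicate 2. It was -0.67 in the run that holds eIF2Bbeta and -0.51 in that of eIF2Bdelta. With each run's median subtracted, the initiation factors stood at 0.0035 in replicate 2 and the gap was 0.33. Over all 4 arrays the gap was then 0.042 ± 0.20 (SD), and as deposited 0.15 ± 0.12, above 0 on 4 of 4. The part of spot position in the gap was not tested. With the same subtraction the cytoplasmic group stood above the mitochondrial one on 3 of 4 arrays, at a mean of 0.074 ± 0.13, and as deposited on 1 of 4. Its excess over all factors was 0.057 ± 0.19, above 0 on 2 of 4 arrays, and as deposited 0.13 ± 0.14, on 4 of 4. The mitochondrial group minus the factors then gave -0.017 ± 0.091, and as deposited 0.075 ± 0.036. RpL15 and RpL23 lie in the same run, whose median with the sign turned was 0.455 in replicate 4. With run medians subtracted their means were 0.20 and 0.32.

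**Figure D3:**
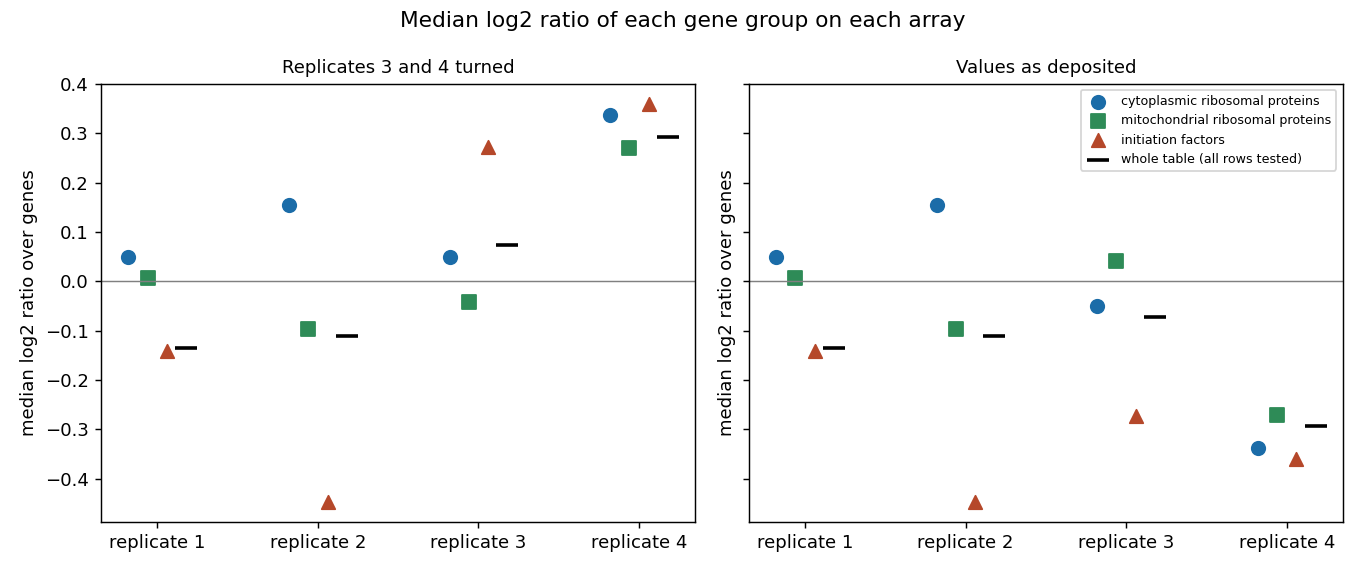
Median log2 ratio over the genes of each group on each array, with replicates 3 and 4 turned on the left and as deposited on the right. The black bar is the median of all 3853 rows tested. Cytoplasmic ribosomal proteins lie 0.60 above initiation factors in replicate 2, and as deposited they lie above them on all 4 arrays.

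The values as deposited are themselves the ratio of levetiracetam over normal food if the swap was undone before deposit. Under that reading 0 of the 45 members passed an adjusted p of 0.05 in limma, with a smallest adjusted p of 0.16, and 0% of all rows passed. At an unadjusted p under 0.05 there were 0 members higher, against 0.415% of rows, and 2 lower, eIF4A and eIF4G2, against 18.8% of rows. One-class SAM then called 1 member, eIF4G2, among 472 rows or 12.3% of the table, and 0 rows when its false calls were averaged by the mean. Of the members' means 11 of 45 were above 0, where 20.2% of all rows were. They were 6 of 15 cytoplasmic ribosomal proteins, 3 of 13 mitochondrial ones and 2 of 17 factors. The medians over genes were -0.052, -0.030 and -0.27, against -0.17 for the table. As deposited, all 4 arrays had a median below 0 over the rows tested.

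Centring each array on its own median removes that offset. With arrays centred and replicates 3 and 4 turned, 26 of 45 members were above 0, against 51.5% of rows, and 11 of the 15 cytoplasmic members were. Centred and as deposited, 28 of 45 were above 0, against 50.5% of rows, and 13 of the 15 cytoplasmic members were. The median over cytoplasmic members was 0.032 in the first case and 0.12 in the second, against 0.0054 and 0.0028 for all rows. On the single arrays the centred median of the cytoplasmic group was 0.20, 0.32, -0.029 and 0.031, so its distance from the array's middle lay in replicates 1 and 2. The centred medians of the initiation factors over genes were -0.0033 turned and -0.12 as deposited.

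**Figure D4:**
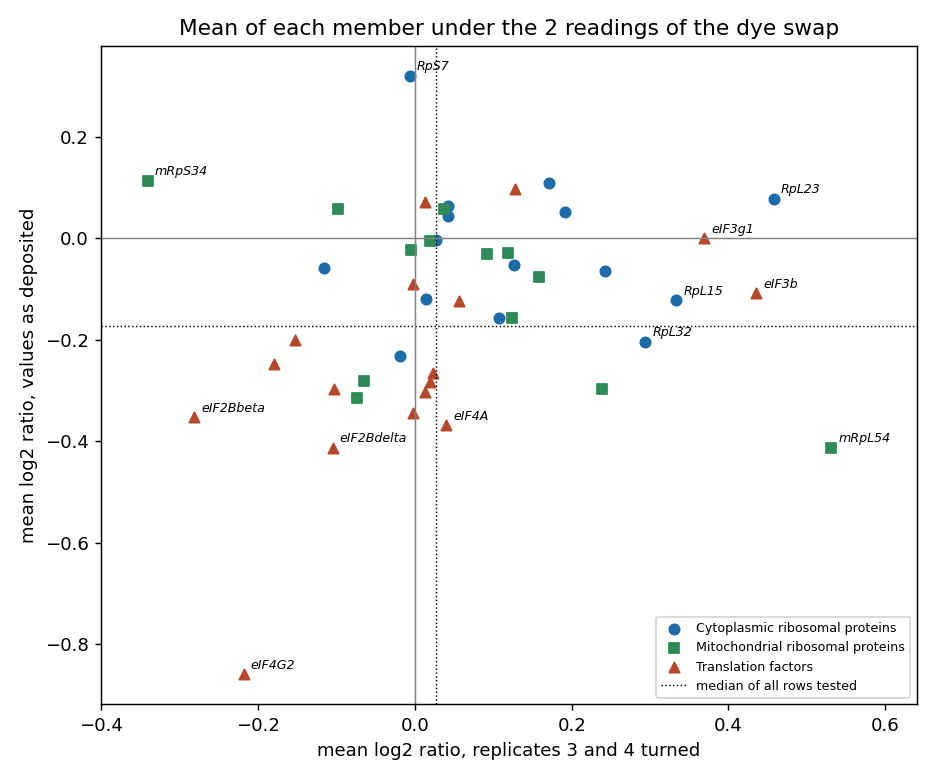
Mean log2 ratio of each member with replicates 3 and 4 turned (x axis) against the mean as deposited (y axis). Dotted lines mark the medians of all rows tested. RpL23 is above 0 on both axes, mRpL54 and mRpS34 change sign between them, and eIF4G2 lies lowest on the y axis at -0.86.

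Agreement in sign over the arrays was counted for the 35 members present on all 4. With the sign turned 5 were above 0 on every array, RpL15, RpL23, RpL27, eIF3g1 and mRpS24, where 6.9% of rows were, and 1 was below on every array, mRpS34, where 1.71% were. With each array's median subtracted, RpL15, RpL23, eIF3g1 and also RpL3 were above 0 on 4 arrays, but RpL27 and mRpS24 on 2 only. mRpS34 was then above 0 on 1 array. After this subtraction 4 of the 35 members had the same sign on all 4 arrays, against 301 of 2870 rows. Before it 6 of the 35 members did, against 247 of 2870 rows. As deposited 0 were above on every array, where 2.06% of rows were. As deposited 5 were below on every array, RpL7-like, eEF1alpha2, eIF3k, eIF4A and eIF4B, where 25.5% were. A count of 5 is 14.3% of the 35 members and a count of 1 is 2.86%.

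A second limma fit added dye orientation, coded 1 for arrays with levetiracetam in Cy5 and -1 for arrays with it in Cy3. For a gene on all 4 arrays this term equals its mean as deposited, such as 0.077 for RpL23. If the swap was undone before deposit, the term is therefore the treatment effect. For the orientation term 0 of 45 members passed an adjusted p of 0.05, against 1.14% of rows, and 2 had an unadjusted p under 0.05, eIF4G2 and eIF2Bbeta, against 19.8% of rows. The term of eIF4G2 was -1.05, with an interval of -1.48 to -0.61 and an adjusted p of 0.0508, from 1 array in Cy5 and 2 in Cy3. With orientation as a covariate 0 members passed for the treatment mean, against 0.026% of rows, and 7 had an unadjusted p under 0.05, or 15.6% of the members against 6.44% of rows. These were RpL23, RpL15, eIF3g1, eIF3b and mRpL54 above 0 and mRpS34 and eIF4G2 below it. Their smallest adjusted p was 0.493, that of RpL23.

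Other genes of protein synthesis, listed by function, were few on these arrays. Of the ribosomal proteins outside the naming rule 2 were measured and neither passed. RpLP0, the stalk protein of the large subunit, stood at 0.29, 0.28, -0.19 and 0.48 in replicates 1 to 4, and Rack1, a scaffold on the small subunit, at 0.69, -0.30 and 0.21 in replicates 2 to 4. Both were below 0 only in replicate 3. Among release factors, poly(A) binding and eIF4E regulators 5 were measured, 3 of them above 0, and 0 passed an adjusted p of 0.05 in limma. The helicase bel stood at -0.72, -0.42, -0.37 and -0.097, below 0 on all 4 arrays, with an unadjusted p of 0.0403 and an adjusted p of 1.00, and as deposited its mean was -0.17. crc, the fly's ATF4, had a mean of 0.24, and pelo, which rescues stalled ribosomes, was spread widely at -0.95, 1.34 and 2.32 in replicates 2 to 4. As deposited the means were -0.078 for crc and -1.54 for pelo, whose values were then all below 0. Of the TOR pathway S6k, the kinase of a small subunit protein, had a mean of 0.15 and foxo, a transcription factor held back by insulin signalling, -0.038. SerRS was the only aminoacyl-tRNA synthetase measured, at 0.021, and of nucleolar genes Ns2 stood at 0.17 and pit at 0.024. All 5 measured genes of protein targeting and nascent chains were above 0, where 57.2% of all rows were. Sec61beta, part of the channel into the endoplasmic reticulum, stood at 0.23, and the signal recognition particle proteins Srp68 and Srp9 at 0.17 and 0.18. None of the 5 passed. As deposited 1 of these 5 was above 0, where 20.2% of all rows were. No gene of the mitochondrial translation factor list was measured.

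Among the 53 members not measured on 3 arrays, 13 had values on 2 arrays, 14 on 1 and 26 on none. They include the duplicate genes RpS5b, RpS10a, RpS19b and RpS28b, with values on 2, 0, 0 and 1 arrays. For initiation factors they include eIF3d2 and eIF3f2, each with values on 0 arrays, and eIF4E3, with values on 2. RpS20 of the small subunit had a value on 0 arrays. Of the mitochondrial ribosomal proteins 35 of 48 were left out in this way. As for the label of the tissue, ratios carry no level, so head markers could be checked only for having a value. Measured were nSyb for neurons (1 of 1 marker on the array), Arr1 for photoreceptors (1 of 3) and moody for glia (1 of 2). The testis marker Mst77F had a value too, so having one does not identify the tissue. Of the markers of fat body 3 of 7 on the array were measured, with means between -0.33 and 0.051, and of those of muscle 1 of 2, Act88F at 0.12.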

How the data were processed

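Heads were compared on 4 arrays of spotted cDNA, each hybridised with 1 levetiracetam and 1 normal food pool. Slides were scanned on a GenePix scanner and quantified in GenePix Pro 6.0, and ratios were normalized in Acuity 4.0, per the labels and the design text. Spots were dropped by the authors when dim, flagged, saturated or below a signal to noise ratio of 2, per the design text. The deposited values are log2 ratios, whose scale was read from the values and whose direction and centring the sources used here do not state.

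Values of replicates 3 and 4 were turned. Each feature is 2 neighbouring spots, which were averaged, and then the features of a gene, with features that carry no single gene symbol kept as rows of their own. Rows with values on at least 3 arrays entered 1 limma 3.58.1 fit (R 4.3.3), 3853 in all, made up of 2259 genes and 1594 unnamed features. The test was two-sided against 0 with Benjamini-Hochberg adjustment over all rows, and it was tested on simulated data. One-class SAM used all 16 sign changes of the arrays. Exact sign changes of 4 arrays cannot give a p below 0.125.

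The genes and lists were chosen with earlier results of these data known. Values in every array were to be given for the 6 genes of each group with the smallest p and for genes whose features differ by over 0.5. Those of RpS7, RpL17, eIF2Bdelta, eIF4A and of genes outside the naming rule were added after their values were seen. Gene names come from the platform table, and locus tags from RefSeq. A cDNA spot can also bind the RNA of near-identical copies of its gene, so members with close copies are uncertain. The number of arrays limits the precision, and no depth applies. Alternatives were values as deposited, arrays centred, run medians subtracted, dye orientation as a covariate and each array left out.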

Additional observations from a re-analysis of the deposited data

Results flagged for a closer look

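The value of mRpS9, a protein of the mitochondrial small subunit, was 0.669 in replicate 4, far from the other three arrays, which lay between -0.11 and 0.010. The gap to the nearest array was 0.849 of the whole range, above the critical value of Dixon's test for 4 values. Chance gives such a result for about 1 in 20 sets of arrays, or 2.05 of the 41 sets tested here. The values tested were not centred, and replicate 4 had a median of 0.29 over all rows tested. With each array's median subtracted, mRpS9 stood at 0.0705, 0.171, -0.1865 and 0.3625 in replicates 1 to 4. Dixon's test was not repeated on these centred values.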

How the results depend on the processing

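The count of members past an adjusted p of 0.05 was 0 in each alternative fit in limma. SAM called 0 members with the sign turned and 1, eIF4G2, as deposited. At an unadjusted p under 0.05 in limma, 3 members were higher and 0 lower. The higher count was 0 as deposited, 5 with arrays centred, 5 with dye orientation as a covariate, 5 with both, 1 as deposited and centred, and 0 to 1 with 1 array left out. The lower count was 2 as deposited, 1 with run medians subtracted, 2 with the dye covariate, 2 with that and centring, 1 as deposited with either centring or run medians subtracted, and 0 to 1 with 1 array left out. As deposited the cytoplasmic median was -0.052, and 6 cytoplasmic members, 3 mitochondrial ones and 2 factors had means above 0. Without 1 array, factors above 0 numbered 4 to 14, but the middle of all rows shifts then too.

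Over all 45 genes the sign of the mean turned for 24 as deposited, for 5 with arrays centred and for 7 with run medians subtracted. It turned for 26 when at least 1 of the arrays was left out, and for 8, 11, 4 and 13 without replicates 1, 2, 3 and 4. Of the other 19 genes, 6 moved by no more than 1.5 times with any 1 array left out: RpL23, RpL27, RpL3, RpL39, eIF3g1 and mRpL54. Among the genes whose values in every array were given by rule, signs turned as deposited for RpL15 (-0.12), RpL3 (-0.064), RpL32 (-0.20), eEF1alpha2 (-0.12), eIF3g1 (-0.00025), eIF3b (-0.11), mRpL54 (-0.41), mRpS34 (0.11), mRpS18B (-0.30), mRpS35 (-0.076), mRpS24 (-0.029) and mRpS9 (-0.16). As deposited with arrays centred, signs of these genes turned for RpL32 (-0.022), mRpL54 (-0.23), mRpS34 (0.29) and mRpS18B (-0.12). As deposited with run medians subtracted they turned for RpL32 (-0.028), eEF1alpha2 (-0.080), mRpL54 (-0.18), mRpS34 (0.23), mRpS18B (-0.0049), mRpS9 (-0.039) and RpL7-like (0.015). With 1 array left out, the means of these genes crossed 0 for eEF1delta (-0.30 to 0.13), eEF1alpha2 (-0.0095 to 0.10), eIF5B (-0.34 to 0.015), eIF4G1 (-0.28 to 0.013), eIF4G2 (-0.69 to 0.48), mRpS9 (-0.058 to 0.20) and RpL7-like (-0.16 to 0.11). The cause was not tested. The alternatives that combine the deposited values or the dye covariate with another choice were added after seeing the data.

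Each array already holds a levetiracetam and a normal food pool. The test of the ratios against 0 is therefore itself the test of pairs, and no further block can be added. With values on 3 or 4 arrays, the unadjusted 95% interval reached 0.42 to either side in the median member. The test adjusted over all rows needs larger differences still. At 0.53 over 3 arrays, mRpL54 had an adjusted p of 1.00 in limma.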
